A study of Mus musculus with 24 samples.

Results

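The genes described here are 7 members of the MHC class II antigen presentation pathway, namely Cd74, H2-Aa, H2-Ab1, H2-Eb1, H2-DMa, H2-DMb1 and Ciita, out of 45513 genes counted in each library. They were found by name among the counted Ensembl genes, and all 7 passed the filter on low counts in every fit. The set was selected on measured values: in an earlier look at these libraries H2-Aa was higher in 9S/T-A colon than in WT colon, and a class II score stood lower in 9S/T-A SI than in WT SI. Differences between genotypes are therefore given as a description with no test. Differences between tissues come from the same libraries. The choice of genes favours higher levels in colon than in SI for 9S/T-A and the reverse for WT. Their p-values do not account for this choice and are not independent evidence.

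RNA was sequenced from 24 libraries of mouse intestinal epithelium, 6 in each of 4 groups: WT SI and WT colon, and 9S/T-A SI and 9S/T-A colon. All mice were homozygotes of 8 to 16 weeks on a C57BL/6 background whose Atoh1 locus was replaced by a knock-in allele that also drives the inducible recombinase CreERT2, together with 1 copy of a Rosa26 tdTom reporter. Controls carried the Atoh1(WT)CreERT2 allele, and mutants carried Atoh1(9S/T-A)CreERT2, in which every serine or threonine that precedes a proline in ATOH1 was replaced by alanine. Every mouse was given 3 mg tamoxifen once, and live EpCAM+tdTom+ cells of the proximal small intestine (SI) or colon were sorted the next day. The reporter is switched on only in cells that express Atoh1, so the sort aimed at the secretory lineage and its precursors. No library was made from unlabelled absorptive cells or immune cells of the tissue, but markers of such cells were counted, as given below. Replicates are numbered 2 to 7 in each group, with 3 females and 3 males, and libraries of the same number had the same sex in all 4 groups. The labels do not say whether a number marks a mouse, so p-values measure the spread between these libraries.

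MHC class II molecules are pairs of an alpha and a beta chain that display peptides from the endocytic pathway to CD4+ T cells. The pair is assembled around the invariant chain, encoded by Cd74, which guides it to endosomes and blocks its groove until the DM molecule, a pair of H2-DMa and H2-DMb1 or H2-DMb2, helps to exchange the remaining fragment for a peptide. Transcription of the genes depends on CIITA, a co-activator that is recruited by RFX, NF-Y and CREB proteins at the promoters and is itself induced by interferon gamma. Professional antigen-presenting cells express the pathway constantly, whereas intestinal epithelial cells express it at levels that vary with region and inflammation.

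The promoters of class II genes hold a Y box, whose core GATTGG is bound by NF-Y, and stretches before the transcription starts of 3 members are shown because they carry it. The sequences are RefSeq's, build GRCm38.p6, written 5′ to 3′ on the strand of the gene with GATTGG in capitals. The first 2 run from 110 to 21 bases before the start, at chr17:34287844-34287933 on the minus strand for H2-Aa and chr17:34305757-34305846 on the plus strand for H2-Eb1. For H2-DMb1 the 30 bases that end with the motif are given, chr17:34153105-34153134 on the plus strand, since this piece falls within the gene as it was counted.
H2-Aa: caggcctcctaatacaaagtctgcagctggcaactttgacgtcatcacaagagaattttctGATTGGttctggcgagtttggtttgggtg
H2-Eb1: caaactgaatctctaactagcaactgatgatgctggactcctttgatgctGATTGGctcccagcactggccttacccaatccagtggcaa
H2-DMb1: tgatgctaggctgattcactcagtGATTGG
The motif began 49, 60 and 62 bases before the starts of H2-Aa, H2-Eb1 and H2-DMb1. Upstream of H2-Eb1 there was also 1 copy on the opposite strand. Over 250 bases before the start, 7.7% of 32817 promoter windows held GATTGG on the strand of the gene and 14.5% held it on either strand. H2-Eb1 and H2-DMb1 further shared a stretch of 13 bases, aactgatgatgct, which began 89 bases before the start in H2-Eb1 and 92 bases before it in H2-DMb1. Of the 7 members, 4 had an entry in the table of promoters, and the entry of H2-DMa lay apart from the gene that was counted and was not used. Cd74, H2-Ab1 and Ciita had no entry. A match to these letters is a description and was not tested for binding.

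Library depth was 36 to 65.8 M counts, lowest in WT SI replicate 7. Levels are counts per M (CPM) scaled by TMM factors over all 24 libraries, and levels of different genes are compared per kb of exon. Epcam stood at 770 to 1110 CPM in the 24 libraries. The 8 secretory markers together took 315000 to 508000 CPM in SI and 35800 to 82000 CPM in colon. The 11 enterocyte markers summed to 3430 to 7300 CPM in SI and to 431 to 830 CPM in colon. Their part in the class II values was not tested. The targeted gene Atoh1, whose changed codons are not visible in counts per gene, was at 92.3 ± 15.5 CPM for WT and 75 ± 11 CPM for 9S/T-A libraries of SI, and at 103 ± 15.7 CPM for WT and 85.9 ± 13.6 CPM for 9S/T-A libraries of colon (mean ± SD, n = 6 each). Among markers of professional antigen-presenting cells, Ms4a1 reached at most 0.734 CPM, Flt3 0.531 CPM, Adgre1 0.279 CPM and Itgax 1.47 CPM in any library. Other genes of the same lists were higher, with up to 6.48 CPM for Itgam, 3.7 CPM for Tyrobp and 3.07 CPM for C1qa. Fcer1g reached 2.97 CPM and Ighm 2.04 CPM. Several members had levels in this range in some groups. Lymphocyte RNA was present in SI: the 13 T cell and intraepithelial lymphocyte markers summed to 42.8 to 154 CPM in SI libraries and to 0.977 to 2.5 CPM in colon libraries. The 10 B cell markers, carried by the immunoglobulin gene Igkc, summed to 7.89 to 78.5 CPM in SI of WT, to 1.71 to 20.3 CPM in SI of 9S/T-A and to at most 0.848 CPM in colon. The 15 dendritic cell and macrophage markers summed to 4.98 to 12.3 CPM over the 24 libraries.

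Cd74 (ENSMUSG00000024610, GRCm38 chromosome 18, 60803848 to 60812646, plus strand), the invariant chain, had the largest pooled SD of log2 CPM within groups among the 7 genes. By highest over lowest level other members ranged wider in some groups, such as Ciita at 25.8-fold in WT SI, where Cd74 ranged 15.1-fold. In WT SI Cd74 ran from 13.1 CPM in replicate 2 to 198 CPM in replicate 7, with a median of 33.3 CPM. In 9S/T-A SI it ran from 2.01 to 32.0 CPM with a median of 5.82 CPM, and replicates 4 and 5 stood apart from the other 4 at 26.9 and 32.0 CPM. The WT colon libraries lay together between 1.69 and 8.75 CPM, with a median of 5.35 CPM. In 9S/T-A colon the lowest library, replicate 3, had 4.84 CPM, the median was 77.0 CPM and replicate 6 reached 463 CPM. By median the order was 9S/T-A colon, WT SI, 9S/T-A SI and WT colon, and each pair of neighbours in this order overlapped.

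**Figure D1:**
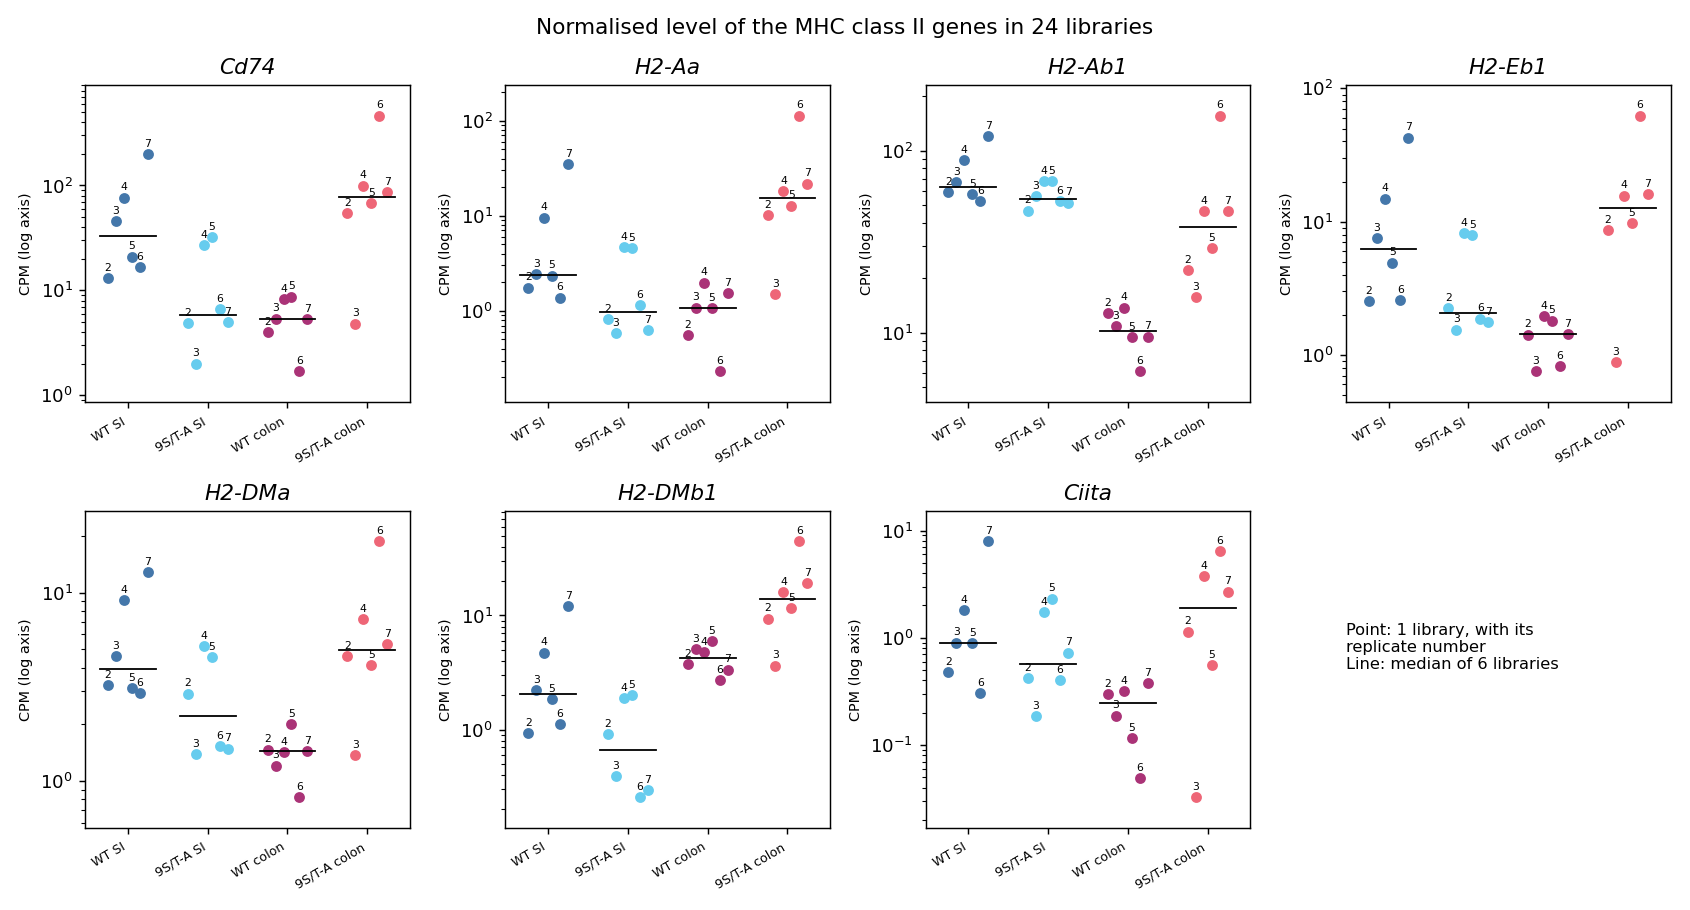
Level of each class II gene in CPM on a log axis, 1 panel per gene; each point is 1 library marked with its replicate number, and the line is the median of 6 libraries. WT SI replicate 7 and 9S/T-A colon replicate 6 are the highest of their groups in all 7 panels, and 9S/T-A colon replicate 3 is the lowest of its group in all 7.

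The 3 genes of the peptide-binding chains lie side by side on chromosome 17. H2-Aa (ENSMUSG00000036594, 34282744 to 34287827, minus strand) encodes the alpha chain of the I-A molecule. Its lowest, median and highest levels were 1.38, 2.4 and 35.1 CPM for WT SI and 0.578, 0.98 and 4.69 CPM for 9S/T-A SI. For WT colon they were 0.23, 1.07 and 1.98 CPM, and for 9S/T-A colon 1.5, 15.4 and 113 CPM. The pattern was that of Cd74 at a lower level, with the same libraries at the top of 9S/T-A colon and WT SI. H2-Eb1 (ENSMUSG00000060586, 34305877 to 34316199, plus strand), the beta chain of I-E, ran from 2.55 to 42.8 CPM (median 6.24) in SI of WT and from 1.55 to 8.2 CPM (median 2.06) in SI of 9S/T-A. In colon it ran from 0.751 to 1.95 CPM (median 1.42) in WT and from 0.88 to 62.5 CPM (median 12.7) in 9S/T-A. Its alpha-chain partner, listed as the pseudogene H2-Ea-ps, had 0 counts in 23 of 24 libraries and 0.0136 CPM in the remaining one, as is known for C57BL/6 mice, which lack a working copy.

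H2-Ab1 (ENSMUSG00000073421, 34263209 to 34269418, plus strand), the beta chain of I-A, differed from Cd74 in SI by its small spread. In SI its levels stayed between 52.7 and 120 CPM for WT and between 46.9 and 68.4 CPM for 9S/T-A, a 1.46-fold range over the 6 mutant libraries, in which Cd74 varied 15.9-fold. In colon H2-Ab1 ran from 6.11 to 13.7 CPM for WT and from 15.6 to 156 CPM for 9S/T-A. Every 9S/T-A colon library lay above every WT colon library, and every WT colon library lay below every WT SI library. How many of all genes separate in this way is not given, so nothing is read from it.

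The DM genes lie on the same chromosome. H2-DMa (ENSMUSG00000037649, 34135182 to 34139101, plus strand) ran from 2.92 to 12.9 CPM in SI of WT and from 1.39 to 5.2 CPM in SI of 9S/T-A, and in colon from 0.822 to 2.01 CPM for WT and from 1.38 to 18.7 CPM for 9S/T-A. H2-DMb1 (ENSMUSG00000079547, 34153072 to 34160230, plus strand) was low in SI, at 0.937 to 12.1 CPM for WT and 0.255 to 1.99 CPM for 9S/T-A. In colon it was at 2.71 to 5.97 CPM for WT and 3.63 to 44.6 CPM for 9S/T-A, so that it was the only member whose median was higher in WT colon (4.27 CPM) than in WT SI (2.04 CPM). Of the distinct 50-base pieces of H2-DMb1 transcripts, 22.7% also occur in its neighbour H2-DMb2, so reads of the 2 genes may have been exchanged. The other 6 members shared at most 0.5% of such pieces with any other gene.

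Ciita (ENSMUSG00000022504, chromosome 16, 10488178 to 10527564, plus strand), the co-activator, was the scarcest member, with 2 to 476 counts per library. It overlaps Dexi on the opposite strand, and counting was by strand. The lowest, median and highest levels were 0.307, 0.896 and 7.92 CPM for WT SI and 0.185, 0.573 and 2.32 CPM for 9S/T-A SI. They were 0.0493, 0.244 and 0.378 CPM for WT colon and 0.0326, 1.92 and 6.46 CPM for 9S/T-A colon. The 9S/T-A colon libraries thus spanned both the lowest level of the series, in replicate 3, and levels near the top.

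Per kb of exon, H2-Ab1 was the most abundant of the 7 genes in 5 of 6 WT SI libraries, 6 of 6 9S/T-A SI libraries and 5 of 6 WT colon libraries. Cd74 took that place in 5 of 6 9S/T-A colon libraries. Ciita was the least abundant in all 24 libraries. The median levels in WT SI were 38.6 CPM per kb for H2-Ab1, 23.6 for Cd74, 5.27 for H2-Eb1, 2.39 for H2-DMa, 1.38 for H2-DMb1, 1.28 for H2-Aa and 0.171 for Ciita. In 9S/T-A colon they were 54.6 CPM per kb for Cd74, 23.1 for H2-Ab1, 10.7 for H2-Eb1, 9.33 for H2-DMb1, 8.21 for H2-Aa, 3.02 for H2-DMa and 0.365 for Ciita. In both groups the ranges of each pair of neighbours in these orders overlapped.

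In WT mice, class II genes were lower in colon than in SI, the direction that the choice of genes favours. The edgeR test found 6 of 7 members lower in colon and none higher, where 30.4% of 16979 tested genes were lower, 33.1% were higher and 63.6% were called in either direction. The median log2 fold change of the members was -3.04, against 0.026 over all genes tested. Cd74 was 11.3-fold lower in colon (log2 scale -3.50 ± 0.636 SE, edgeR adjusted p = 0.000179). H2-Ab1 was 7.31-fold lower (-2.87 ± 0.224, adjusted p = 2.32e-08) and had the smallest error of the 7 genes. H2-Eb1 was 9.33-fold lower (-3.22 ± 0.636, adjusted p = 0.000377), H2-Aa 8.2-fold (-3.04 ± 0.785, adjusted p = 0.00321), Ciita 8.99-fold (-3.17 ± 0.737, adjusted p = 0.00146) and H2-DMa 4.34-fold (-2.12 ± 0.367, adjusted p = 0.000117). The colon and SI libraries did not overlap for Cd74, H2-Ab1, H2-Eb1 and H2-DMa, and they overlapped for H2-Aa and Ciita. The share of all genes without overlap is not given, here or for 9S/T-A, so nothing is read from such separation. H2-DMb1 did not pass, at 0.15 ± 0.499 on that scale (adjusted p = 0.812). In bulk RNA, fewer cells that express a gene and less RNA per cell cannot be told apart.

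WT SI replicate 7 weighed on these sizes. Without it the 6 calls held, with log2 fold changes of -2.64 for Cd74, -1.69 for H2-Aa, -2.65 for H2-Ab1, -2.25 for H2-Eb1, -1.72 for H2-DMa and -1.94 for Ciita, and H2-DMb1 passed as higher in colon (log2 fold change 0.97, edgeR adjusted p = 0.0251). The lymphocyte markers moved with tissue as well: 11 of 11 T cell and intraepithelial lymphocyte genes tested were lower in WT colon, as were 7 of 7 pan-leukocyte, 3 of 4 B cell and 5 of 8 dendritic cell and macrophage markers tested. Their part in the difference was not tested. Within WT SI, replicate 7 had the highest sum of the 7 pan-leukocyte markers, 60.4 CPM in a range from 37.9 CPM, and of the dendritic cell and macrophage markers, 11.9 CPM in a range from 8.77 CPM. It had the lowest sum of B cell markers, 7.89 CPM, and its T cell and intraepithelial lymphocyte sum of 99.1 CPM lay inside the range of the other 5 libraries, 59.1 to 138 CPM.

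In 9S/T-A mice the difference between tissues ran the other way, again in the direction that the choice of genes favours. The test found 5 of 7 members higher in colon and none lower, where 32.9% of 16938 tested genes were higher, 28% were lower and 60.9% were called in either direction. The median log2 fold change of the members was 2.25, against 0.042 over all genes tested. H2-DMb1 was 18.3-fold higher in colon (log2 scale 4.19 ± 0.63 SE, edgeR adjusted p = 3.54e-05) and was the member whose colon libraries all lay above the SI libraries. H2-Aa was 14.2-fold higher (3.83 ± 0.876, adjusted p = 0.00144), Cd74 9.82-fold (3.30 ± 0.878, adjusted p = 0.00432) and H2-Eb1 4.74-fold (2.25 ± 0.733, adjusted p = 0.0151). Neither H2-Ab1 (-0.15 ± 0.427, adjusted p = 0.782) nor Ciita (1.32 ± 0.784, adjusted p = 0.16) passed. H2-DMa was at the threshold, 2.39-fold higher (1.25 ± 0.512, adjusted p = 0.0455), and its adjusted p was 0.05004 with the replicate number as a block.

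**Figure D2:**
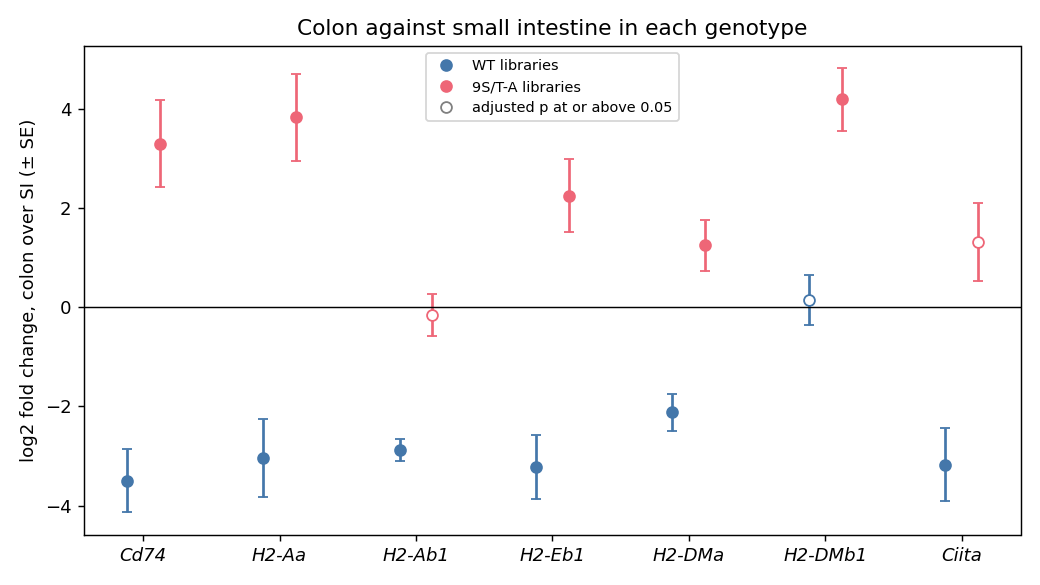
Log2 fold change of colon over SI for each class II gene, with its standard error, in WT libraries (blue) and 9S/T-A libraries (red), 6 against 6 libraries each; filled points passed an edgeR adjusted p of 0.05. In WT 6 of 7 genes lie below 0 and H2-DMb1 is at 0.15, and in 9S/T-A 5 genes lie above 0 with filled points.

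Several of these calls leaned on 9S/T-A colon replicate 6. Without it Cd74 (log2 fold change 2.25, edgeR adjusted p = 0.0155), H2-Aa (2.62, adjusted p = 0.00357) and H2-DMb1 (3.65, adjusted p = 5.29e-05) stayed higher in colon, whereas H2-Eb1 (1.35, adjusted p = 0.0711) and H2-DMa (0.65, adjusted p = 0.2) did not pass and H2-Ab1 passed as lower in colon (-0.87, adjusted p = 0.00692). H2-DMa failed in 10 of 19 alternatives. Ciita passed with plain library totals (2.16, adjusted p = 0.0203) and without 9S/T-A colon replicate 3 (1.58, adjusted p = 0.0486). Of the leukocyte markers tested, 11 of 11 T cell and intraepithelial lymphocyte genes and 6 of 6 pan-leukocyte genes were lower in 9S/T-A colon than in 9S/T-A SI. Their part in the class II values was not tested. Of the 16 dendritic cell and macrophage markers 9 were tested, and 5 were lower and 3 higher in 9S/T-A colon, and their part in the result was not tested. The 3 higher ones, named after their values were seen, were C1qa (3.18, edgeR adjusted p = 0.00133), Zbtb46 (1.28, adjusted p = 0.0257) and Itgam (0.62, adjusted p = 0.00627). In replicate 6 the T cell and intraepithelial lymphocyte markers summed to 1.14 CPM, the B cell markers to 0.312 CPM and the dendritic cell and macrophage markers to 7 CPM, each within the range of the other 5 libraries of its group. Itgam, with a mean of 4.55 CPM in this group, made up much of the last sum. Of single markers on few counts, Csf1r (0.271 CPM), Zbtb46 (0.407 CPM) and Itgax (0.0407 CPM) were highest of the group in replicate 6. Flt3 (0.176 CPM) lay inside its range.

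The scale of comparison between tissues depended on the normalisation, and why was not tested. With plain library totals the median log2 fold change of all genes moved from 0.026 to 0.74 in WT and from 0.042 to 0.85 in 9S/T-A, and the share of called genes that were higher in colon moved from 52.1% to 86.5% and from 54% to 88.4%. The 6 members lower in WT colon remained so on that scale, from -1.45 for H2-DMa to -2.86 for Cd74. H2-Ab1 in 9S/T-A moved from -0.15 to 0.65 (adjusted p = 0.163) and H2-DMb1 in WT from 0.15 to 0.79 (adjusted p = 0.166), both close to the shift of all genes.

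Between genotypes, the libraries that were used to choose the genes gave the following values. The counts of calls below describe those libraries, and nothing is read from them, since the genes were picked on these contrasts. In SI the log2 fold changes of 9S/T-A over WT were -2.26 for Cd74, -2.08 for H2-Aa, -0.37 for H2-Ab1, -1.67 for H2-Eb1, -1.07 for H2-DMa, -2.01 for H2-DMb1 and -1.06 for Ciita. Among the 7 the number called was 0, beside 1.94% of 16236 genes, and the libraries of the 2 genotypes overlapped for all 7. Without WT SI replicate 7 the values shrank to -1.44 for Cd74, -0.78 for H2-Aa and -0.74 for H2-Eb1, and Ciita went to 0.12. In colon the log2 fold changes were 4.56 for Cd74, 4.80 for H2-Aa, 2.37 for H2-Ab1, 3.82 for H2-Eb1, 2.32 for H2-DMa, 2.06 for H2-DMb1 and 3.45 for Ciita. Called were Cd74, H2-Aa and H2-Eb1, beside 0.318% of 16997 genes, and the number called ran from 0 to 7 when single libraries were left out. It was 7 without 9S/T-A colon replicate 3 and 0 without 9S/T-A colon replicate 4 or without any 1 of the 6 WT colon libraries.

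The genotype effect in colon minus that in SI, the product of genotype and tissue fitted over all 24 libraries, was 6.80 on the log2 scale for Cd74, 6.86 for H2-Aa, 2.72 for H2-Ab1, 5.47 for H2-Eb1, 3.37 for H2-DMa, 4.04 for H2-DMb1 and 4.49 for Ciita. The same holds for its counts: the members other than Ciita were called, beside 0.412% of 17953 genes, and nothing is read from this. H2-DMb1 was not called without WT SI replicate 7 or 9S/T-A colon replicate 6 or 5 other libraries, and Ciita was called without 9S/T-A colon replicate 3. H2-Ab1 went to 2 without 9S/T-A colon replicate 6, and Ciita to 3.32 without WT SI replicate 7. These values are arithmetic on the same libraries and share the choice of genes.

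Within a library, the members did not keep fixed proportions. The ratio of H2-Ab1 to its partner H2-Aa, in CPM per kb, had a median of 29.8 in WT SI (3.92 to 43.7), 59.2 in 9S/T-A SI (16.6 to 111), 10.8 in WT colon (7.06 to 30.3) and 2.56 in 9S/T-A colon (1.58 to 11.9). In WT SI the lowest ratio was that of replicate 7, and in 9S/T-A colon that of replicate 6, the libraries with the highest Cd74 of their groups. In WT colon the lowest was that of replicate 7, whose Cd74 was near the median. The ratio of H2-DMb1 to H2-DMa split by tissue instead. It was 0.319 to 1.04 in WT SI and 0.185 to 0.482 in 9S/T-A SI, against 2.54 to 4.65 in WT colon and 2.25 to 3.98 in 9S/T-A colon, so that every colon library lay above every SI library in both genotypes. The ratio of Cd74 to H2-Aa had group medians of 6.21 to 11.3. These ratios were picked after the levels were seen and carry no test. How many ratios of other gene pairs separate by tissue is not given, so nothing is read from the separation. As 22.7% of the 50-base pieces of H2-DMb1 also occur in H2-DMb2, exchanged reads may enter its ratio.

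**Figure D3:**
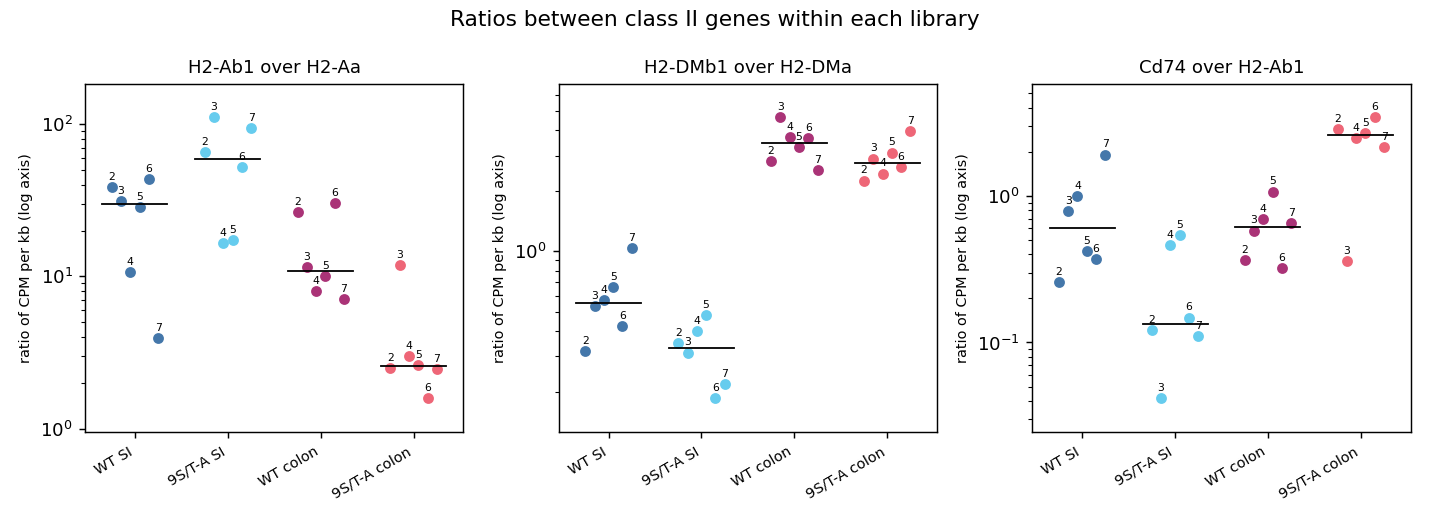
Ratios of CPM per kb between class II genes within each library, on log axes, with points marked by replicate number and lines at the median of 6 libraries. H2-DMb1 over H2-DMa is at most 1.04 in SI and at least 2.25 in colon, and H2-Ab1 over H2-Aa falls to 1.58 in 9S/T-A colon replicate 6.

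The 7 genes varied together from library to library. After subtraction of group means from log2 CPM, the 21 pairs of members had Pearson correlations of 0.814 to 0.966 over 24 libraries, with a median of 0.929. The points share library, depth and scaling, and the values are descriptive. The pooled SD within groups was 1.52 for Cd74, 1.40 for H2-Aa, 1.28 for H2-Eb1, 1.01 for Ciita, 0.93 for H2-DMb1, 0.79 for H2-DMa and 0.66 for H2-Ab1 in log2 units, which ranked Cd74 as number 9, H2-Aa as 11 and H2-Ab1 as 151 among 17953 genes. WT SI replicate 7 and 9S/T-A colon replicate 6 were each the highest of their group for 7 of 7 members. In 9S/T-A SI, replicates 4 and 5 were the top pair for 7 of 7.

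Of 13846 genes with a mean of at least 1 CPM, those most like Cd74 in these deviations, members aside, were H2-DMb2 (r = 0.911), Nlrc5 (0.835), Tgtp2 (0.827), Tgtp1 (0.826), Igtp (0.823), Ifi44 (0.815), Psmb9 (0.815), Iigp1 (0.811), Gbp6 (0.810) and Ifi47 (0.808). H2-DMb2 shares 50-base pieces with the member H2-DMb1. In SI and colon apart, with 12 libraries each, r was 0.946 and 0.699 for Igtp and 0.918 and 0.758 for Tgtp1. It was 0.858 and 0.815 for Nlrc5 and 0.871 and 0.774 for Iigp1. Among leukocyte genes, Cd3g had -0.064 and -0.144, Gzma -0.103 and 0.377 and Ptprc -0.03 and 0.325. NLRC5 is the co-activator of MHC class I genes, Psmb9 encodes a subunit of the immunoproteasome, and Tgtp1, Tgtp2, Igtp, Iigp1, Gbp6 and Ifi47 encode GTPases induced by interferon. Among the lists, the 22 interferon gamma pathway and target genes that reached this level had a median r with Cd74 of 0.681, from -0.458 to 0.827, and the 17 class I genes 0.588, from 0.167 to 0.835. The 10 class II transcription genes had a median of 0.134, from -0.093 to 0.535, the 9 T cell and intraepithelial lymphocyte genes of -0.008, the 5 pan-leukocyte genes of 0.087 and the 11 enterocyte genes of -0.437. Within the class II transcription list, the RFX genes Rfx5, Rfxank and Rfxap had r of 0.13, 0.096 and -0.053. Nfya had 0.535, Creb1 0.485 and Ep300 0.399, and these 3 were named after their values were seen.

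**Figure D4:**
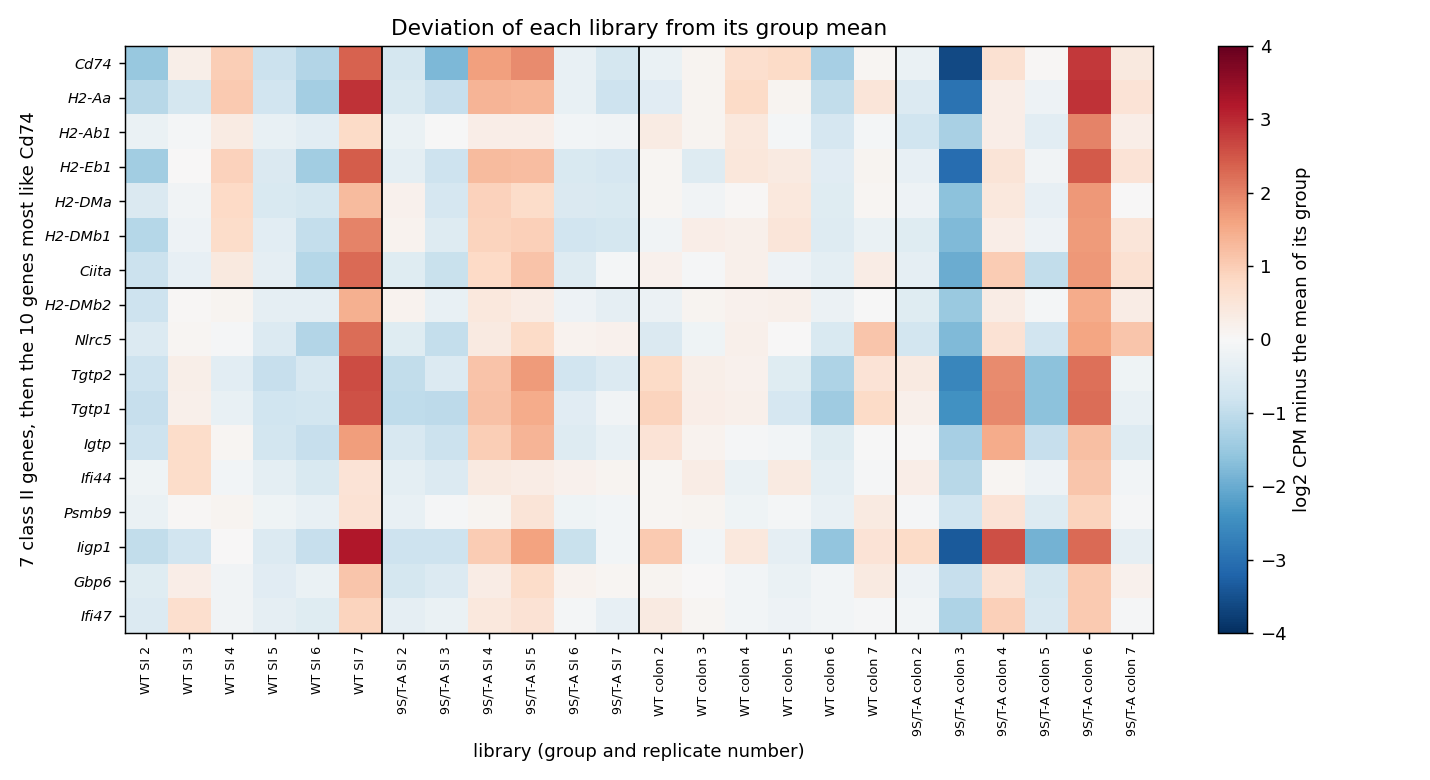
Deviation of log2 CPM from the group mean in each of 24 libraries (columns) for the 7 class II genes (top rows) and the 10 genes most like Cd74 (lower rows); red is above and blue below the mean of the group. WT SI replicate 7 and 9S/T-A colon replicate 6 are red, and 9S/T-A colon replicate 3 is blue, in both sets of rows.

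Of 11 further class II chains and loading genes, 6 were tested between tissues. In WT 2 were higher and 2 lower in colon, and in 9S/T-A 3 were higher and 1 lower, shares near the 63.6% and 60.9% of all genes called in either direction. Ctss, the cathepsin that trims the invariant chain, was higher in colon in WT (log2 fold change 1.67, edgeR adjusted p = 3.5e-08) and in 9S/T-A (1.60, adjusted p = 4.16e-06), as was Ctsl (1.62 and 1.57). Ifi30, a lysosomal thiol reductase, was lower in colon in both (-0.33 and -0.36), and Lgmn was lower in WT colon (-0.75, adjusted p = 0.000282) and had 0.12 (adjusted p = 0.649) in 9S/T-A. H2-DMb2 ran from 0.0961 to 2.4 CPM in SI of WT and from 0.0589 to 0.464 CPM in SI of 9S/T-A, and in colon from 0.493 to 0.838 CPM for WT and from 0.586 to 7.99 CPM for 9S/T-A. It was higher in colon in 9S/T-A (3.75, adjusted p = 6.15e-05) with -0.11 (adjusted p = 0.872) in WT. H2-Eb2 and the DO genes H2-Oa and H2-Ob, whose product restrains DM, stayed at or below 0.131 CPM in every library and were not tested. Of the 11, none was called between genotypes in SI or colon, and H2-DMb2 was called for the product (3.85, adjusted p = 0.0345). The shares called over all genes tested were 1.94% in SI, 0.318% in colon and 0.412% for the product. With the replicate block 1 was called between genotypes in colon and 2 for the product.

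Of 10 class II transcription genes, 7 were lower in WT colon than in WT SI and 6 lower in 9S/T-A colon than in 9S/T-A SI, and none was higher. The shares lower in colon over all genes tested were 30.4% in WT and 28% in 9S/T-A. Rfxank had the largest change, from medians of 51.8 to 22.4 CPM in WT (log2 fold change -1.29, edgeR adjusted p = 1.65e-08) and from 64.6 to 21.2 CPM in 9S/T-A (-1.65, adjusted p = 1.62e-08). Rfxap changed by -0.31 and -0.50, Nfyb by -0.42 and -0.48 and Ep300 by -0.45 in both. Rfx5 had 0.15 in 9S/T-A and -0.08 in WT and did not pass. None of the 10 was called between genotypes or for the product. Over all genes tested these shares were 1.94% in SI, 0.318% in colon and 0.412% for the product, so nothing is read from this.

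Of the 24 genes of the interferon gamma list, its receptors, kinases and targets, 14 were lower and 1 higher in WT colon, with a median log2 fold change of -0.97. In 9S/T-A 8 were lower, 3 were higher and 13 did not pass, with a median of -0.15, and over all genes tested 30.4% were lower in WT colon and 28% in 9S/T-A colon. Ido1, an interferon-induced enzyme of tryptophan breakdown, was lower in colon by -8.62 in WT (edgeR adjusted p = 7.75e-12) and -5.72 in 9S/T-A (adjusted p = 9.09e-06). Jak2 was lower by -1.59 and -1.62, and Irf1, a transcription factor that drives Ciita, by -1.58 and -1.29. Gbp4 was lower in WT colon (-2.96, adjusted p = 0.000446) and had -0.78 (adjusted p = 0.205) in 9S/T-A. With the replicate block Gbp4 passed as lower in 9S/T-A colon (-0.98, adjusted p = 0.0426). Gbp5 was higher in colon in both (1.37 and 1.90), and Iigp1 (4.86, adjusted p = 0.00181) and Tgtp1 (2.15, adjusted p = 0.045) were higher in 9S/T-A colon, with 0.65 and -0.77 in WT that did not pass. With the block Iigp1 passed in WT too (2.15, adjusted p = 0.02) and Tgtp1 did not pass in 9S/T-A (1.83, adjusted p = 0.0531). No gene of the list was called between genotypes or for the product. Over all genes tested 1.94% were called in SI, 0.318% in colon and 0.412% for the product, so nothing is read from this. The list medians were -0.11 in SI, 0.61 in colon and 0.86 for the product, against 0, 0.005 and -0.015 over all genes tested.

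Of 17 class I presentation genes, 15 were lower in WT colon and 11 in 9S/T-A colon, and none was higher in either. Over all genes tested, 30.4% were lower in WT colon and 28% in 9S/T-A colon. Psmb8, an immunoproteasome subunit, changed by -2.82 in WT (edgeR adjusted p = 8.18e-12) and -1.87 in 9S/T-A (adjusted p = 7.57e-05). B2m, the light chain of class I, changed by -1.94 and -1.30, H2-K1 by -1.09 and -0.89, and Psmb10 by -1.42 and -1.39. Nlrc5 was lower in WT colon (-2.29, adjusted p = 0.00789) and had 0.60 (adjusted p = 0.415) in 9S/T-A, and Tap1, a peptide transporter, was lower in WT colon (-1.46, adjusted p = 2.32e-05) and had -0.52 (adjusted p = 0.159) in 9S/T-A, which passed with the block (-0.66, adjusted p = 0.0365). Of 6 co-stimulation and checkpoint genes 3 were tested, and Icosl was lower in colon in both genotypes (-0.93 and -0.95). With the block all 3 were lower in WT colon. None of these genes was called between genotypes or for the product, and with the block 1 class I gene was called for the product. The main fits called 1.94% of all genes in SI, 0.318% in colon and 0.412% for the product, so nothing is read from this.

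Same-numbered SI and colon libraries were compared for Cd74, since a number high in SI might also be high in colon. Over 6 numbers the Pearson r of log2 CPM was 0.39 in WT (exact two-sided permutation p = 0.464, Spearman rho 0.43, exact p = 0.419) and 0.44 in 9S/T-A (exact p = 0.426, rho 0.60, exact p = 0.242). The Benjamini-Hochberg values over the 2 genotypes were 0.464 for r and 0.419 for rho, and 720 pairings allow no p below 0.00139. Without the 2 numbers farthest from the SI median r was 0.37 in WT and 0.97 in 9S/T-A, and without number 3 it was -0.18 in 9S/T-A. The median r over all genes was 0.358 and 0.435. WT SI replicate 7 at 198 CPM faced WT colon replicate 7 at 5.31 CPM, and 9S/T-A colon replicate 6 at 463 CPM faced 9S/T-A SI replicate 6 at 6.69 CPM, so the highest library of each of these groups had no high counterpart in the other tissue.

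**Figure D5:**
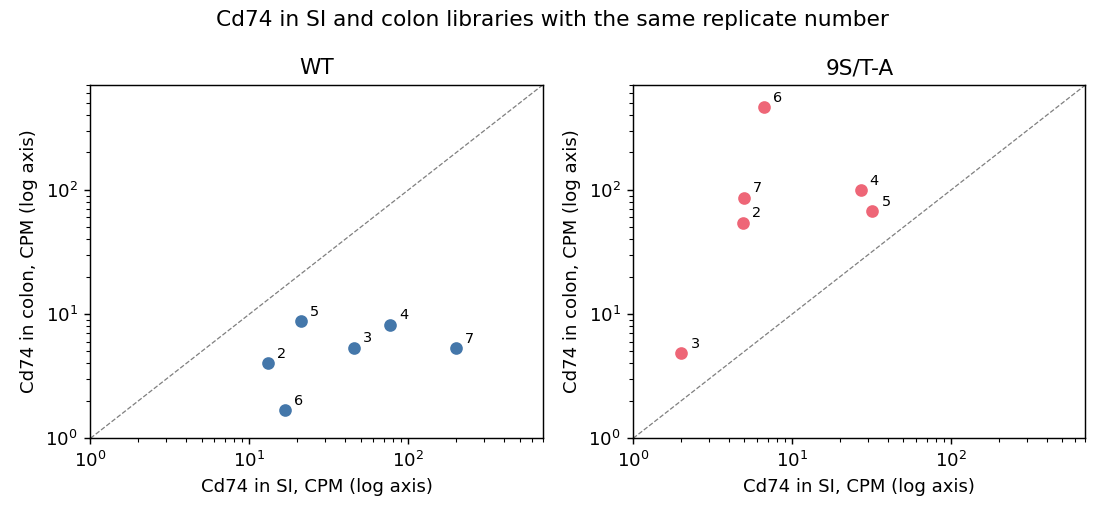
Cd74 in CPM in the SI library (x axis) and the colon library (y axis) with the same replicate number, on log axes, for WT (left) and 9S/T-A (right); the dashed line marks equal levels. All 6 WT points lie below the line and all 6 9S/T-A points lie above it.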

How the data were processed

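Stranded mRNA libraries (TruSeq) of 24 sorted cell samples were read in single-end 50-base runs, and the authors aligned the reads to GRCm38 with TopHat2 2.1.1. The deposited values are raw read counts per Ensembl gene from featureCounts of Subread 1.5.2, taken by strand over exons. Per the file headers a read with several positions was counted at its primary one, so counts of near-identical genes are uncertain. Symbols were found for 44585 of 45513 genes (97.96%). Among 60 pairs of libraries within groups, 0 were identical, and the counts of the closest pair differed beyond sampling noise (chi-square per degree of freedom 25.8).

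Genes were filtered with filterByExpr by group, scaled by TMM and tested two-sided with edgeR 4.0.16 (quasi-likelihood, R 4.3.3), with Benjamini-Hochberg adjustment over all genes of a fit and a threshold of 0.05. Colon was compared with SI within each genotype, 9S/T-A with WT within each tissue, and the product of both over 24 libraries. Standard errors are the log2 fold change divided by the square root of F. Log2 CPM has an offset of 0.5 CPM. The members and lists were chosen with earlier results of these data known. Named were the members, a set of pathway genes (H2-Ea, H2-Eb2, H2-DMb2, H2-Oa, H2-Ob, Rfx5, Rfxank, Rfxap, Ctss, Ifi30, Irf1, Nlrc5, B2m, H2-K1, Psmb8 and Tap1), up to 3 called genes per pathway list and direction with the largest change, and the 10 genes most like Cd74. Some genes that this rule or the marker lists hold are not reported here. Marker lists were for B cells, dendritic cells and macrophages, T cells and intraepithelial lymphocytes, leukocytes, stroma, epithelium, secretory cells, enterocytes and stem cells. Lyz2, a Paneth cell gene in SI, was left out of the dendritic cell and macrophage sum.

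Within a genotype, SI and colon libraries that carry the same number deviated together, with correlations across genes of 0.154 to 0.55 in WT and 0.14 to 0.632 in 9S/T-A (6 of 6 over 0.1 in both). Such libraries also share their sex, and its part in the correlations was not tested. The numbers were therefore used as a possible pairing of the tissues in the replicate block. In the comparisons of genotypes the same block grouped WT and 9S/T-A libraries of 1 tissue by number. The main fits and their p-values include no pairing. Alternatives were DESeq2 1.42.0, its size factors in edgeR, plain library totals, testing without any gene filter or with a minimum mean of 10 counts, sex as a covariate, the replicate block, and leaving out each library. Intervals of depth cover counting error only and none is printed.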

Additional observations from a re-analysis of the deposited data

Results flagged for a closer look

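The product term of the fit over 24 libraries was past the threshold for 6 members. The effect in colon minus that in SI, on the log2 scale, was 6.80 for Cd74, 6.86 for H2-Aa, 2.72 for H2-Ab1, 5.47 for H2-Eb1, 3.37 for H2-DMa and 4.04 for H2-DMb1. The genes were chosen on the same libraries and contrasts, so the values are a description and no test of the difference. By Dixon's criterion no library stood apart from the rest of its group in the 28 sets of 1 member and 1 group, where chance flags about 1 in 20.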

How the results depend on the processing

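Between tissues, the 6 calls of lower class II genes in WT colon held under all 19 alternatives. In 9S/T-A, leaving out single libraries gave 3 to 6 members called higher in colon, with 3 without 9S/T-A colon replicate 6. The replicate block changed no call of a member between tissues other than that of H2-DMa in 9S/T-A. Between genotypes in SI, where 315 genes were called, DESeq2 called 782, the replicate block 477 and leaving out single libraries 188 to 550. In colon, where 54 genes and 3 members were called, DESeq2 called 250 genes and 7 members, testing without a gene filter 90 and 6, the replicate block 385 and 6, sex as a covariate 89 genes, and leaving out single libraries 30 to 72 genes and 0 to 7 members. For the product, where 74 genes and 6 members were called, DESeq2 called 258 genes and 7 members, and the replicate block 342 and 7. Leaving out single libraries gave 50 to 112 genes. The cause of these differences was not tested. Between genotypes the replicate block grouped WT and 9S/T-A libraries of the same number, a pairing that the labels do not give. Of such pairs, 4 of 6 in SI (mean correlation 0.186) and 5 of 6 in colon (mean 0.389, lowest 0.023) correlated over 0.1. The colon mean was above those between tissues, 0.274 and 0.347, and 3 of 6 libraries in SI and 4 of 6 in colon correlated best with their own number. Libraries of the same number share their sex in every group. The part of sex or of anything else shared by number was not tested. The correlation of Cd74 between same-numbered SI and colon libraries ran from 0.13 to 0.64 in WT and from -0.18 to 0.69 in 9S/T-A, where it changed sign without replicate 3. Over the alternatives, calls of members were lost and gained 0 and 1 times in the WT tissue comparison (of 133 values), 11 and 3 in 9S/T-A, 22 and 16 between genotypes in colon and 7 and 3 (of 217) for the product. Signs changed in 2, 3 and 1 values of the WT tissue, 9S/T-A tissue and SI genotype comparisons, those of H2-DMb1, H2-Ab1 and Ciita, none of them called before or after. Low counts limit Ciita, which had as few as 2 counts in a library.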
